A study of Mus musculus with 4 samples.

Results

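Leptin, growth hormone, prolactin and the cytokines of the interleukin-6 family all signal through receptors that lack an enzyme of their own and work through Janus kinases (JAKs) and STAT transcription factors. The 10 genes described here are parts of this route: the receptors Lepr, Ghr, Prlr and Il6st, the kinase Jak2, the transcription factors Stat3 and Stat5b, and 3 genes that the route switches on, Socs2, Cish and Pim1. They were chosen by name, and each symbol was held by exactly 1 of the 32285 genes of the count tables. They were followed through the cell classes of the pituitary and across diet. The samples were single-cell RNA libraries of pituitary glands from wildtype C57BL/6J male mice. The HFD libraries, HFD 1 and HFD 2, came from mice fed a high-fat diet for 12 weeks, and the CTRL libraries, CTRL 1 and CTRL 2, from mice fed a control diet for the same time. No age, transgene or drug is given in the labels, and wildtype status is common to both diets. The number of glands per library, and whether libraries of a diet came from different animals, is not in the labels, so the p-values below measure only the spread between these libraries, which may be technical.

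When a hormone binds, JAK2 molecules held by the receptor phosphorylate one another, the receptor tail and STAT proteins, which pair, enter the nucleus and bind DNA. STAT5 proteins are the main relay of the growth hormone and prolactin receptors, while STAT3 is the main relay of the leptin receptor and of gp130, the product of Il6st. SOCS2 and CIS, the products of Socs2 and Cish, are made in response and dampen the signal, and PIM1 is a kinase whose gene many STAT-activating cytokines induce. The pituitary makes growth hormone in somatotropes and prolactin in lactotropes. It also responds to leptin from fat and to gp130 cytokines, which act on corticotropes to raise the precursor of the stress hormone ACTH.

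The deposited count tables held 34737 barcodes, with 74758237 and 97223297 UMIs (unique molecular identifiers, which mark single captured RNA molecules) in HFD 1 and HFD 2, against 92818116 and 101903367 in CTRL 1 and CTRL 2. HFD 1 stood apart. It shared 3116 barcodes with HFD 2, and 3110 of these were fainter in HFD 1, at a median of 5.58% of the UMIs in HFD 2. It also shared 1423 barcodes with CTRL 2, while each of the other 4 pairs of libraries shared 14 to 22. The fainter copy of each shared barcode was left out, 4128 barcodes in HFD 1 and 417 in CTRL 2, and results are given with these copies too where they matter. After filters, 12760 HFD and 11155 CTRL cells were kept, with a median of 10091 and 10958 UMIs per cell in HFD 1 and HFD 2, against 17976 and 12405 in CTRL 1 and CTRL 2. The cells fell into 27 clusters, which were named from marker genes in 15 classes written with "-like", and 2.45% of cells stayed unnamed. The labelled tissue carried its defining hormone RNAs, with Gh at 132204 to 183314 CPM and Prl at 31028 to 53544 CPM over the whole gland. A class level below is the UMIs of a gene summed over the cells of a class, divided by all UMIs of that class and scaled to a sum of 1000000 (CPM). As these are 3' tags with 1 tag per molecule, CPM needs no correction for gene length. The classes were built from the same cells, so their levels are described without a test. An order of classes is over the 10 classes with at least 30 cells in every library unless a smaller class is named. Only Pim1 was among the genes used for clustering.

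The promoters were searched for the palindrome TTCNNNGAA, which is the core of the DNA element that STAT dimers bind and reads the same on both strands. RefSeq promoters on GRCm38.p6, each 300 bases long from 250 bases before to 50 after a start site, were matched for 9 of the 10 genes, 15 promoters in all, and only Cish and Prlr held a match. Cish held 2 matches and the second Prlr promoter held 1. These windows are shown because they carry the only matches, which stand in capitals, and both run 5′ to 3′ on the + strand.
Cish promoter, chr9:107296409-107296708: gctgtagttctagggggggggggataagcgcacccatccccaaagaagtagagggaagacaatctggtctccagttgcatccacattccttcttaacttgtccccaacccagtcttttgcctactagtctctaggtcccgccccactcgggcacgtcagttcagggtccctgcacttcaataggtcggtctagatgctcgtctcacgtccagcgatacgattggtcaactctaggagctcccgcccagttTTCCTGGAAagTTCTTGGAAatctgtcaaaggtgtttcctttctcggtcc
Prlr promoter 2, chr15:10223656-10223955: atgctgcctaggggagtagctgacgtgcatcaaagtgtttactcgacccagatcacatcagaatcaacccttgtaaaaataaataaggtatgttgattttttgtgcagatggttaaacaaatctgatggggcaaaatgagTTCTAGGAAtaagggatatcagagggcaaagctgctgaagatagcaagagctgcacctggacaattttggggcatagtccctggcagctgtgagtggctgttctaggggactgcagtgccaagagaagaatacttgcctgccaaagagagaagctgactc
Counted from the 5′ end of each window, the matches lie at bases 251 to 259 and 262 to 270 in Cish and at bases 141 to 149 in Prlr. Of all 32851 promoters of the same length, 8.30% held at least 1 match and 0.457% held at least 2. A match is a run of letters, not a shown binding site, and no match says only that these letters are not in the window.

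Lepr, the leptin receptor (ENSMUSG00000057722, chr4:101717404-101815352, + strand), had its highest levels in non-hormone cells. Of 335 Lepr UMIs in all kept cells, 62.1% lay in endothelial-like cells and 15.8% in the 6 hormone classes, which hold most cells. In endothelial-like cells, which line blood vessels, it had 28.4 and 22.9 CPM in HFD 1 and HFD 2, against 29.0 and 23.9 CPM in CTRL 1 and CTRL 2, from 43 to 56 UMIs per library. In mesenchymal-like cells, of the connective tissue, it had 14.5 and 7.02 CPM in the HFD libraries, against 4.23 and 12.2 CPM in the CTRL libraries, from 2 to 10 UMIs. These classes were separate from each other and from all lower ones, while the 8 lower classes overlapped with their neighbours in the order of levels. The 6 hormone classes held at most 9 Lepr UMIs in any library and at most 1.18 CPM. Somatotrope-like cells had 3 and 9 Lepr UMIs in the HFD libraries, against 4 and 2 in the CTRL libraries, in 1448 to 2842 cells.

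A UMI for Lepr was found in 14.1% and 14.9% of endothelial-like cells in HFD 1 and HFD 2, against 18.5% and 12.3% in CTRL 1 and CTRL 2. To compare at equal depth, cells with at least 2000 UMIs were thinned to 2000 UMIs, and cells with fewer were left out. The shares were then 7.25% and 5.37% in HFD, against 5.83% and 5.82% in CTRL. No thinned lactotrope-like cell held a Lepr UMI. Before thinning, a mean of 0.0467% of lactotrope-like cells held one. Their median depth was then 10043 to 17221 UMIs, against 4602 to 6718 UMIs in endothelial-like cells. The pericyte-like class, cells that wrap small vessels, was too small to test but had 18.9 and 16.7 CPM of Lepr in HFD, against 41.6 and 11.8 CPM in CTRL, from 3 to 10 UMIs. Pituicyte-like cells, the glia of the posterior lobe, held no Lepr UMI, which in the 74 cells of HFD 2 allows up to 4.05% of cells with a UMI and sets no limit on cells that express the gene.

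Ghr, the growth hormone receptor (ENSMUSG00000055737, chr15:3317760-3583492, - strand), was highest in mesenchymal-like cells, at 58.2 and 50.7 CPM in the HFD libraries, against 52.9 and 40.2 CPM in the CTRL libraries. Stem-like cells, which express Sox2 and Sox9, came next with 25.1 and 22.6 CPM in HFD, against 21.3 and 22.5 CPM in CTRL. Only the mesenchymal-like level was clear of the one below it at the top of this order, since stem-like, thyrotrope-like and endothelial-like cells overlapped with their neighbours, in a joint range of 13.3 to 25.1 CPM. Next in order, gonadotrope-like cells, then melanotrope-like and then corticotrope-like ones held 4.97 to 10.2 CPM. Of the classes too small to test, pituicyte-like cells had 63.7 and 60.02 CPM in HFD, against 50.4 and 46.6 CPM in CTRL, overlapping with mesenchymal-like cells, and pericyte-like cells had 29.1 to 50.4 CPM.

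The cells that make growth hormone were near the bottom of the order for its receptor. Somatotrope-like cells had 1.89 and 2.11 CPM of Ghr in HFD, against 2.42 and 2.19 CPM in CTRL, from 52 to 81 UMIs per library. They lay below all classes named so far and above lactotrope-like cells, whose highest library had 1.08 CPM. Macrophage-like cells had 1 Ghr UMI in all 4 libraries. In thinned cells, the share with a Ghr UMI was 0.350% and 0.463% of somatotrope-like cells in HFD, against 0.776% and 0.623% in CTRL, and no thinned macrophage-like cell had one. The same share was 16.4% and 15.5% of mesenchymal-like cells in HFD, against 15.9% and 9.09% in CTRL. Before thinning, 2.03% and 2.36% of somatotrope-like cells in HFD held a Ghr UMI, against 4.90% and 3.16% in CTRL, at median depths of 11011 and 10795 UMIs in HFD, against 21943 and 14223 UMIs in CTRL.

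Prlr, the prolactin receptor (ENSMUSG00000005268, chr15:10177238-10349180, + strand), had higher levels in each of the 6 hormone classes than in the 4 other classes. It had 88.1 and 90.8 CPM in gonadotrope-like cells of HFD 1 and HFD 2, against 122 and 146 CPM in those of CTRL 1 and CTRL 2. In somatotrope-like cells it had 98.2 and 87.1 CPM in HFD, against 92.0 and 95.1 CPM in CTRL. These top classes did not differ beyond their spread. Thyrotrope-like cells followed with 58.8 to 69.2 CPM, then lactotrope-like cells at 54.8 and 56.3 CPM in HFD, against 55.1 and 55.7 CPM in CTRL, the narrowest range of any class for this gene among the hormone cells. Lactotrope-like and corticotrope-like cells overlapped, and melanotrope-like cells lay below both at 33.0 to 39.1 CPM. Stem-like, macrophage-like, endothelial-like and mesenchymal-like cells had 1.04 to 7.68 CPM. In thinned cells, 16.4% and 16.6% of somatotrope-like cells in HFD held a Prlr UMI, against 17.7% and 17.4% in CTRL. No UMI was found in any T or NK cell-like cell, of which HFD 1 had 48, allowing up to 6.25% of cells with a UMI, at a median depth of 2902 to 4319 UMIs. The 48 red blood cell-like barcodes had 34.7 to 66.0 CPM of Prlr. They also held much hormone RNA, with Gh at 168561, 162762 and 276520 CPM in HFD 1, HFD 2 and CTRL 1, and Prl at 131916 CPM in CTRL 2. The part of hormone cells, or of free RNA from broken cells, in this Prlr level was not tested.

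Il6st, the gene of gp130, the signalling chain shared by the receptors of interleukin-6, LIF and related cytokines (ENSMUSG00000021756, chr13:112464070-112510086, + strand), was read in every class. Mesenchymal-like cells stood clear of all others with 289 and 271 CPM in HFD, against 256 and 268 CPM in CTRL. Stem-like cells had 112 and 95.9 CPM in HFD, against 90.2 and 109 CPM in CTRL, and overlapped with endothelial-like cells at 81.7 to 98.3 CPM. Pericyte-like cells, not tested, held 119.8 and 141 CPM in HFD, against 154 and 147 CPM in CTRL. The hormone classes lay between 21.4 and 44.4 CPM, with melanotrope-like cells lowest at 21.4 to 22.7 CPM.

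**Figure D1:**
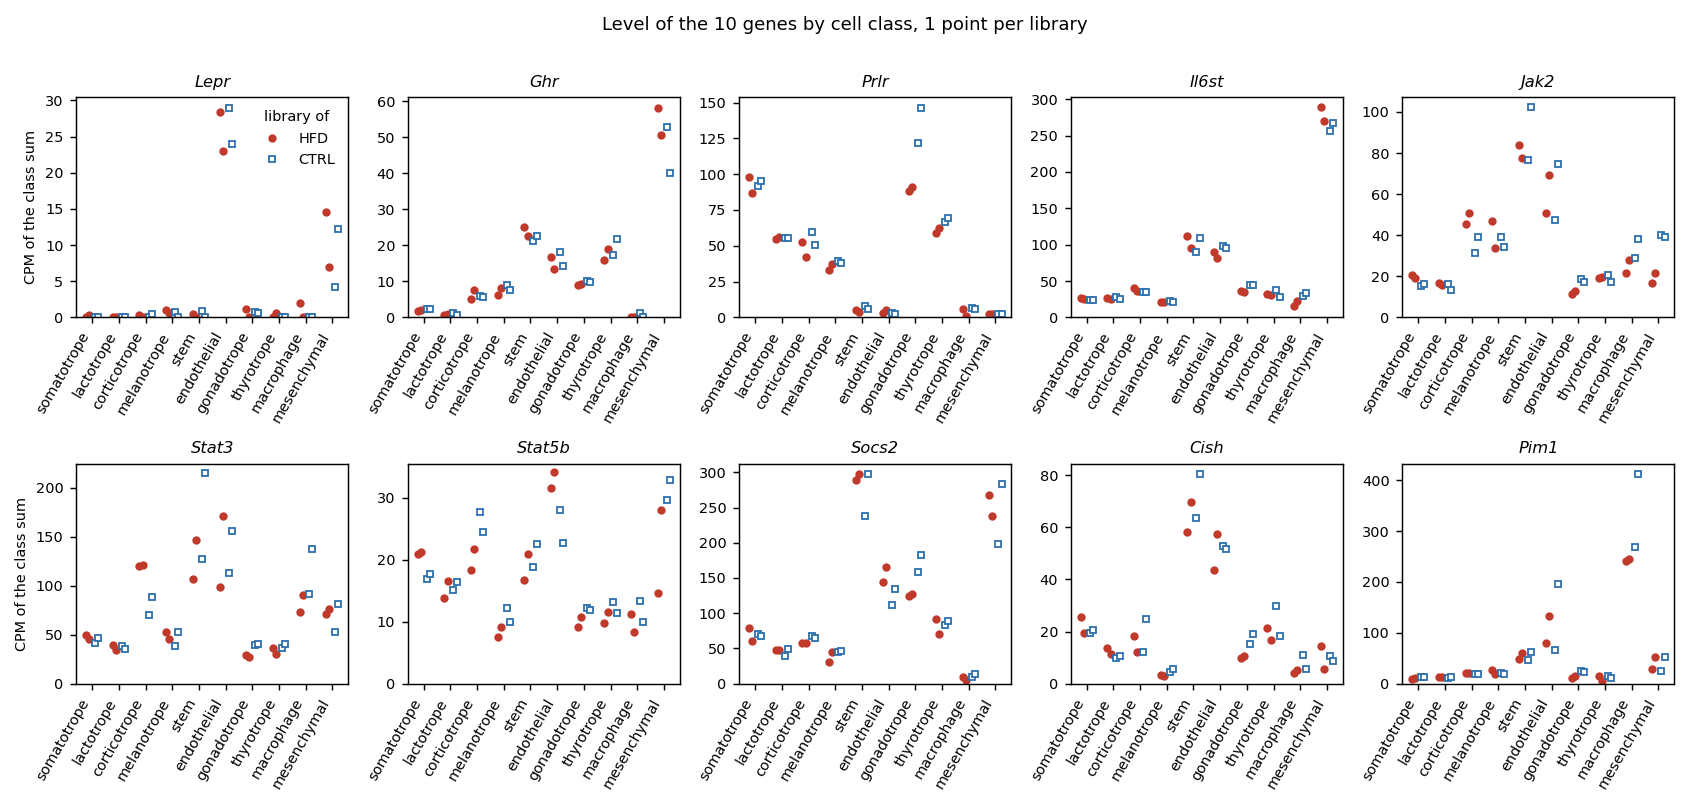
Level of each of the 10 genes in CPM (vertical axes, linear, each starting at 0) in 10 cell classes, with 1 point per library and HFD left of CTRL within a class. Lepr is highest in endothelial-like cells (22.9 to 29.0 CPM), Ghr in mesenchymal-like cells (40.2 to 58.2 CPM) and Pim1 in macrophage-like cells (241 to 413 CPM), while Prlr is high in the 6 hormone classes.

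**Figure D2:**
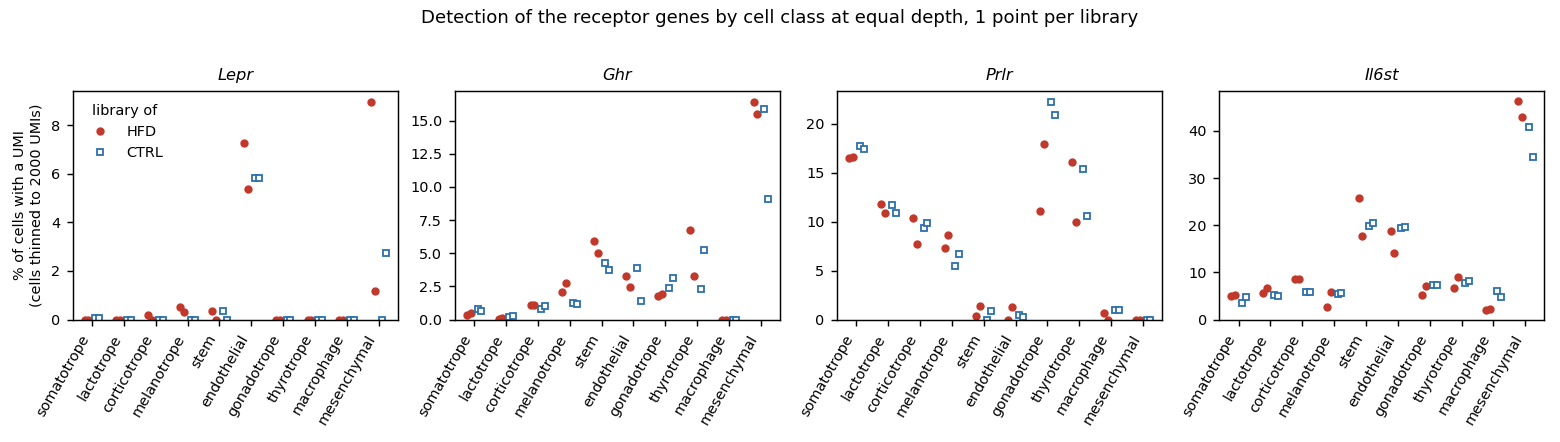
Percent of cells with at least 1 UMI of Lepr, Ghr, Prlr or Il6st per class and library, after thinning to 2000 UMIs. Cells with fewer UMIs than that were left out. The share with Lepr is 5.37% to 7.25% in endothelial-like cells and 0% in lactotrope-like cells, and the share with Prlr is 16.4% to 17.7% in somatotrope-like cells.

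Jak2, the kinase that serves the receptors for leptin, growth hormone and prolactin (ENSMUSG00000024789, chr19:29251828-29313080, + strand), was highest in stem-like cells. They had 84.0 and 77.8 CPM in HFD, against 76.5 and 103 CPM in CTRL, and lay just above endothelial-like cells at 47.6 to 74.5 CPM. Somatotrope-like cells had 20.6 and 19.0 CPM in HFD, against 15.3 and 16.4 CPM in CTRL. Among the hormone classes, corticotrope-like and melanotrope-like cells had the most, at 31.2 to 50.8 CPM. In mesenchymal-like cells, where Ghr and Il6st peaked, Jak2 had 16.6 and 21.8 CPM in HFD, against 40.2 and 39.0 CPM in CTRL, from 8 to 32 UMIs.

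Stat3, the main relay of leptin receptor and gp130 (ENSMUSG00000004040, chr11:100885098-100939540, - strand), had 106 and 146 CPM in stem-like cells of HFD, against 127 and 215 CPM in those of CTRL. Endothelial-like cells overlapped with them, at 98.7 and 171 CPM in HFD, against 113 and 155 CPM in CTRL. Among the hormone classes, corticotrope-like cells held the most, at 69.9 to 121 CPM, above the other 5, which had 27.1 to 52.2 CPM. Stat5b, a relay of growth hormone and prolactin (ENSMUSG00000020919, chr11:100780731-100850724, - strand), was spread more evenly. It had 31.5 and 34.2 CPM in endothelial-like cells of HFD, against 27.9 and 22.6 CPM in those of CTRL, overlapping with mesenchymal-like cells at 14.5 to 32.9 CPM. Somatotrope-like cells had 20.9 and 21.3 CPM in HFD, against 16.9 and 17.6 CPM in CTRL, and melanotrope-like cells were lowest at 7.56 to 12.2 CPM. Whether counting used the strand is not given in the sources used here, and without it reads of Stat3 and of Stat5a, which overlaps it on the other strand, cannot be told apart. The same holds for Cish with Gm17041 and Pim1 with Gm26885.

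Socs2, an inhibitor best known for limiting growth hormone action (ENSMUSG00000020027, chr10:95385362-95417180, - strand), was highest in stem-like and mesenchymal-like cells. Stem-like cells had 289 and 297 CPM in HFD, against 238 and 298 CPM in CTRL. Mesenchymal-like cells had 268 and 239 CPM in HFD, against 199 and 284 CPM in CTRL, and the classes overlapped. Gonadotrope-like cells had the most of the hormone classes, with 125 and 127 CPM in HFD, against 158 and 183 CPM in CTRL. Somatotrope-like cells had 78.9 and 60.4 CPM in HFD, against 69.7 and 68.0 CPM in CTRL, and macrophage-like cells had 5.21 to 14.1 CPM.

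Cish, which encodes the STAT5 target and inhibitor CIS (ENSMUSG00000032578, chr9:107296026-107302784, + strand), was highest in stem-like cells too. They had 58.1 and 69.8 CPM in HFD, against 63.5 and 80.6 CPM in CTRL, with endothelial-like cells just below at 43.6 to 57.6 CPM. Somatotrope-like cells had 25.5 and 19.6 CPM in HFD, against 19.4 and 20.7 CPM in CTRL. In T or NK cell-like cells, too few to test, Cish had 106 and 33.5 CPM in HFD, against 120.4 and 31.6 CPM in CTRL, from 4 to 20 UMIs. Cish was low in mesenchymal-like cells, at 5.46 to 14.5 CPM, although Ghr and Socs2 were both high there.

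Pim1, a survival kinase (ENSMUSG00000024014, chr17:29490753-29496112, + strand), was highest in macrophage-like cells, at 241 and 246 CPM in HFD, against 269 and 413 CPM in CTRL. T or NK cell-like cells had 174 to 374 CPM. Endothelial-like cells came next with 80.4 and 134 CPM in HFD, against 66.2 and 195 CPM in CTRL, so that the library numbered 2 was the higher within each diet. The summed level of 25 immediate-early and dissociation genes, which cells switch on within minutes of stress or handling, was also higher in those libraries, at 21989 and 41511 CPM in HFD, against 23418 and 38965 CPM in CTRL. Its part in the Pim1 level was not tested. Somatotrope-like cells had 9.41 and 11.3 CPM of Pim1 in HFD, against 12.8 and 12.3 CPM in CTRL, and thyrotrope-like cells were lowest at 5.34 to 14.6 CPM.

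Some classes were made of more than 1 cluster, and in stem-like cells some of the genes differed between clusters and others did not. One stem-like cluster, number 7, had an immediate-early sum of 37851 to 40730 CPM and the other, number 14, had 1414 to 2336 CPM. Cish had 65.8 and 71.1 CPM in cluster 7 of HFD and 66.4 and 82.6 CPM in that of CTRL, against 20.3 and 13.7 CPM in cluster 14 of HFD and 29.8 and 34.2 CPM in that of CTRL. Stat3 had 118 to 222 CPM in cluster 7 and 42.7 to 61.5 CPM in cluster 14. Pim1 had 48.0 to 62.8 CPM in cluster 7 and 13.7 to 31.7 CPM in cluster 14. These 3 genes were thus higher in the cluster with the higher immediate-early sum in all 4 libraries. Socs2 was not, with 287 and 298 CPM in cluster 7 of HFD and 239.8 and 296 CPM in that of CTRL, against 299 and 287 CPM in cluster 14 of HFD and 218 and 329 CPM in that of CTRL. Il6st ran the other way, with 87.1 to 106 CPM in cluster 7 and 127 to 179 CPM in cluster 14.

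In endothelial-like cells Pim1 had 104 and 137 CPM in cluster 9 of HFD and 87.1 and 216 CPM in that of CTRL, against 15.8 and 22.6 CPM in cluster 13 of HFD and 11.2 and 4.39 CPM in that of CTRL, where cluster 13 had 1 to 8 Pim1 UMIs per library. Cluster 13 held 124 and 13 cells in HFD 1 and HFD 2, against 95 and 55 in CTRL 1 and CTRL 2. Cluster 9 held 180 and 236 cells in HFD 1 and HFD 2, against 127 and 328 in CTRL 1 and CTRL 2. The part of this mix in the Pim1 level of the class was not tested. In somatotrope-like cells, Cish had 26.5 to 34.3 CPM in cluster 6, whose immediate-early sum was 17237 to 20767 CPM, and 16.1 to 22.3 CPM in cluster 0, at 6067 to 7916 CPM. Cluster 2, at 1404 to 1788 CPM, had 16.1 to 26.9 CPM of Cish, so the order of Cish did not follow the immediate-early sum through all 3 clusters. In thyrotrope-like cells, cluster 16, which was led by Cck and Apoc3 and rested on 3 thyrotrope markers, had 109.7 to 194 CPM of Socs2, against 42.4 to 59.2 CPM in cluster 12. The immediate-early sum was 10739 to 14075 CPM in cluster 16 and 1101 to 1407 CPM in cluster 12. With clustering done without the pathway genes, a cluster led by Cck and Apoc3 stayed unnamed. Mean levels of thyrotrope-like cells then changed from 11.1 to 6.51 CPM for Pim1 and from 35.7 to 25.8 CPM for Stat3.

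**Figure D3:**
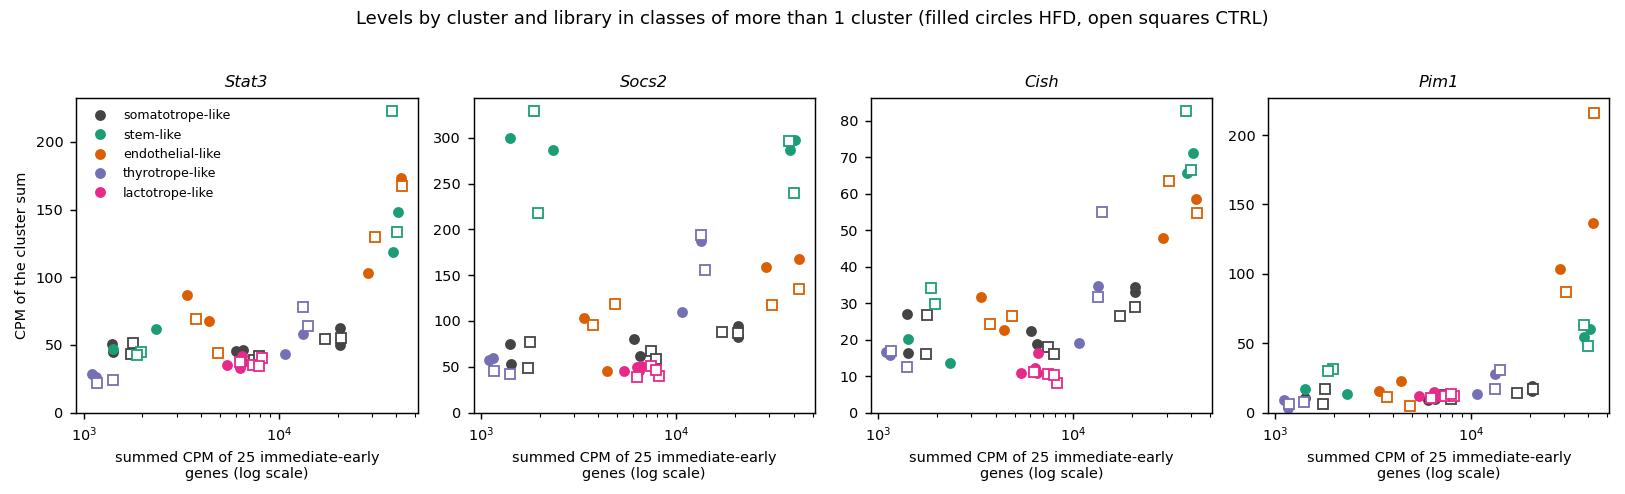
Level of Stat3, Socs2, Cish and Pim1 in CPM (vertical axes, linear, from 0) against the summed CPM of 25 immediate-early genes (horizontal axes, log scale) for each cluster of 5 classes, 1 point per cluster and library. In stem-like cells, Stat3 is at 118 to 222 CPM in the cluster with the high sum and at 42.7 to 61.5 CPM in the one with the low sum, while Socs2 overlaps between them.

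Genes with the most similar arrangement over the 40 class sums (10 classes in 4 libraries, 12628 genes on the log2 scale with 1 CPM added) were found by Pearson's r. The points share libraries and classes, so r is a description. Lepr was most like Rflna (r = 0.968), Sema3d and Tfpi2 (r = 0.959). Ghr was close to Parva (r = 0.902) and Ndrg2 (r = 0.896). For Prlr the nearest were Lyrm9, Amer2 and Chrnb2 (r = 0.947 to 0.950). Pim1 was nearest to Slfn2 (r = 0.952) and to Cd14, which marks monocytes and macrophages. Among the 10 genes themselves, the closest pairs over the classes were Jak2 with Stat3 (r = 0.849) and Ghr with Socs2 (r = 0.835), and Prlr and Pim1 were arranged in opposite ways (r = -0.787).

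The diets were compared with edgeR's quasi-likelihood test on the class sums, in classes with at least 30 cells in every library, with adjustment over all genes of a class. None of the 84 pairs of a gene and a class was called at an adjusted p under 0.05, where 0.485% of all 115766 gene and class pairs were called, so a count of 0 among 84 pairs is near the background. At an unadjusted p under 0.05 edgeR gave 10 of the 84 pairs (11.9%), near the 10.0% of all pairs. They were not spread evenly, as 6 of them were among the 9 genes tested in gonadotrope-like cells, all lower in HFD. In that class 22.1% of all genes were under this threshold, and 10.8% were under it and lower. DESeq2 called 1 of the 84, Stat3 in corticotrope-like cells, and 0.729% of all pairs. It gave no adjusted p for Pim1, Cish, Jak2, Stat5b and Ghr in gonadotrope-like cells or for Ghr in corticotrope-like cells, so it could not call these. With the shared barcodes kept, edgeR again called 0. Values for the pairs nearest to a call, for the class of highest level and for somatotrope-like cells follow. Log2 differences are HFD minus CTRL with their standard error (SE), and n is 2 libraries for each diet.

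**Figure D4:**
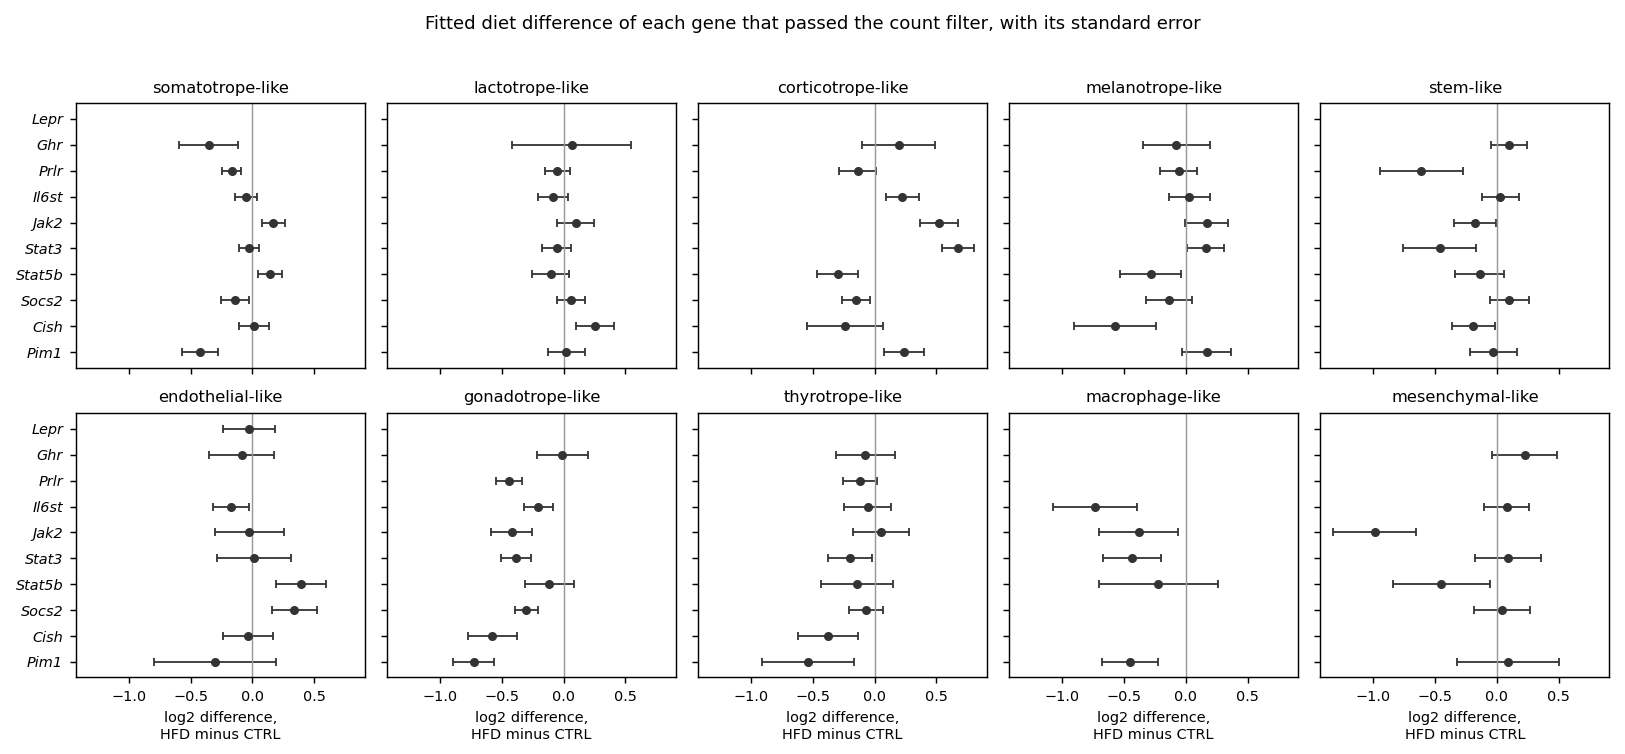
Fitted log2 difference of HFD minus CTRL (horizontal axes) with its SE for each of the 10 genes tested in 10 cell classes. In gonadotrope-like cells all 9 tested genes lie at or left of 0, between -0.73 and -0.01, and Stat3 in corticotrope-like cells lies at 0.68.

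Gonadotrope-like cells, which make LH and FSH, had the lower level of each of 9 tested genes in both HFD libraries, with no overlap between diets. Such a pattern was common in this class, where 41.8% of all genes were lower in HFD without overlap and edgeR called 1.92% in either direction. The median log2 difference was -0.38 over the 9 genes, against -0.004 over all genes of the class, and none of the 9 was called. Pim1 had 11.3 and 14.1 CPM in HFD, against 25.2 and 22.0 CPM in CTRL, which is -0.73 on the log2 scale (SE 0.17, edgeR adjusted p = 0.0606). Prlr, with the levels given above, differed by -0.44 (SE 0.11, edgeR adjusted p = 0.0649). Both sat just outside the threshold.

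Of the other genes in gonadotrope-like cells, Socs2 differed by -0.30 (SE 0.09, edgeR adjusted p = 0.115). Cish had 9.89 and 10.7 CPM in HFD, against 15.1 and 19.0 CPM in CTRL, a difference of -0.57 (SE 0.20, edgeR adjusted p = 0.132). Jak2 had 11.5 and 12.6 CPM in HFD, against 18.6 and 17.2 CPM in CTRL, a difference of -0.42 (SE 0.17, edgeR adjusted p = 0.180). The fitted values of inhibitors, kinase and receptors lay below 0, and none was called. For Ghr and Stat5b the value was smaller than its SE. Stat3 had 29.0 and 27.1 CPM in HFD, against 39.3 and 40.6 CPM in CTRL (edgeR adjusted p = 0.119). Il6st had 35.8 and 34.4 CPM in HFD, against 44.4 and 44.2 CPM in CTRL, a difference of -0.20 (SE 0.11, edgeR adjusted p = 0.331).

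Other measures moved with diet in these cells. The immediate-early sum was 3371 and 3506 CPM in HFD, against 5580 and 5683 CPM in CTRL. The summed markers of gonadotropes were at 207130 and 203133 CPM in HFD, against 153989 and 171792 CPM in CTRL, so a larger share of UMIs went to hormone genes in HFD. The 8 lactotrope markers summed to 807 and 2070 CPM in HFD, against 3433 and 4495 CPM in CTRL, with Col24a1 and Akr1c14 without a UMI in at least 1 library. The 5 red blood cell markers summed to 42.6 and 1428 CPM in HFD, against 34.6 and 24.1 CPM in CTRL, and the 8 macrophage markers to 4.01 and 2.18 CPM in HFD, against 5.70 and 4.19 CPM in CTRL. Of HFD 1, 452 faint copies in this class had been left out, beside 182 kept cells. The part of these measures in the result was not tested. With the copies kept the differences were -0.61 for Pim1 and -0.42 for Prlr (edgeR adjusted p = 0.0670 and 0.0690). Scaling by library totals alone, which moves the median gene of this class by -0.14, called Pim1, Prlr, Socs2 and Stat3, 4 of the 9 genes, and 5.39% of all genes of the class.

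Corticotrope-like cells, which make ACTH, were the class in which Stat3 was nearest to a call. Stat3 had 120.2 and 120.9 CPM in HFD, against 69.9 and 88.2 CPM in CTRL, which is 0.68 on the log2 scale (SE 0.13, edgeR adjusted p = 0.0922). Both HFD libraries lay above both CTRL libraries. In thinned cells, 21.03% and 20.2% of cells in HFD held a Stat3 UMI, against 13.2% and 17.9% in CTRL. Jak2 had 45.3 and 50.8 CPM in HFD, against 31.2 and 39.2 CPM in CTRL, a difference of 0.52 (SE 0.15, edgeR adjusted p = 0.305). Of the 9 genes tested in this class, 4 were higher without overlap, where 12.2% of all genes were, and 2 were lower, where 30.2% were. The lower ones were Stat5b, with 18.3 and 21.7 CPM in HFD, against 27.7 and 24.4 CPM in CTRL, and Socs2, with 57.2 and 57.1 CPM in HFD, against 68.2 and 65.1 CPM in CTRL.

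DESeq2, which is 1 of the 14 other settings counted next, gave Stat3 in corticotrope-like cells an adjusted p of 0.0128. Of 14 other settings 4 called it, with adjusted p between 2.16e-05 and 0.624 over all 14. The log2 difference ran between 0.37 with thinned cells and 0.87 without CTRL 2, the only library whose removal brought a call. Markers of granulocytes and macrophages moved with diet here, while those of T or NK cells and of B cells overlapped between diets. The T or NK cell markers summed to 1.95 and 3.67 CPM in HFD, against 4.09 and 2.85 CPM in CTRL. B cell markers summed to 0.36 and 3.10 CPM in HFD, against 0.39 and 6.86 CPM in CTRL. The 6 granulocyte markers summed to 169 and 41.1 CPM in corticotrope-like cells of HFD and were all at 0 in CTRL. The 8 macrophage markers summed to 51.1 and 29.9 CPM in HFD, against 10.3 and 10.9 CPM in CTRL, with Csf1r and Mrc1 at 0 in at least 1 library. The 5 red blood cell markers summed to 96.6 and 87.2 CPM in HFD, against 62.9 and 32.5 CPM in CTRL. The part of such cells or of their free RNA in the Stat3 level was not tested.

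**Figure D5:**
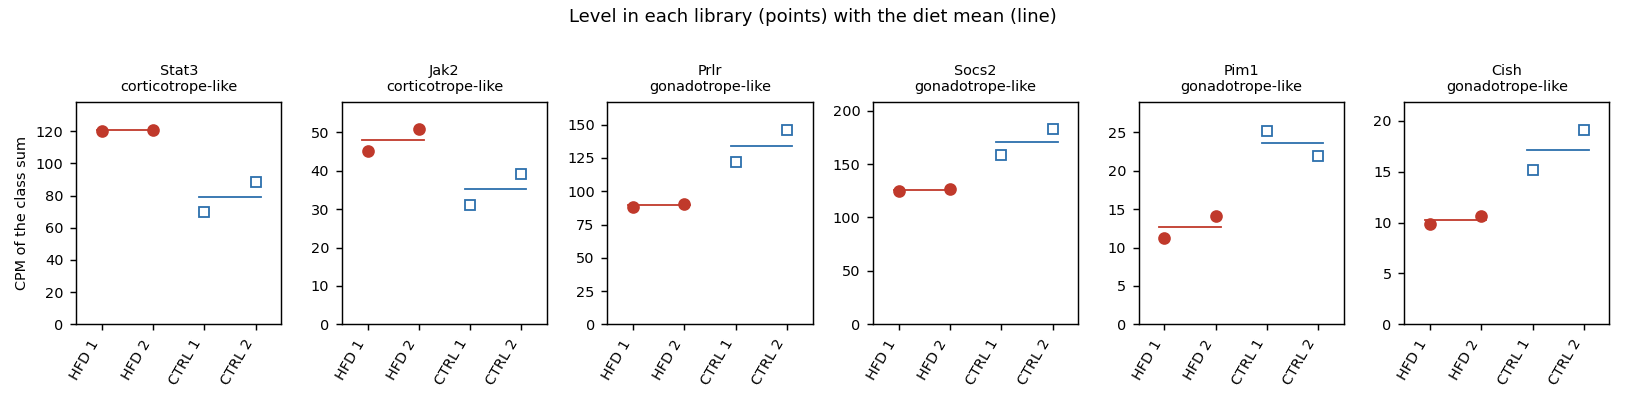
Level in CPM (vertical axes, linear, from 0) in each library for 6 chosen pairs of a gene and a class, with a line at the mean of each diet. These are not all the pairs nearest to a call. Jak2 in corticotrope-like cells (edgeR adjusted p = 0.305) is shown, and Stat3 in gonadotrope-like cells (edgeR adjusted p = 0.119) is not. Stat3 in corticotrope-like cells lies at 120.2 and 120.9 CPM in HFD, against 69.9 and 88.2 CPM in CTRL, and Pim1 in gonadotrope-like cells at 11.3 and 14.1 CPM in HFD, against 25.2 and 22.0 CPM in CTRL.

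In somatotrope-like cells, 3 of 9 tested genes were higher in HFD without overlap, where 45% of all genes of the class were, and 2 were lower, where 12.3% were. Ghr differed by -0.36 (SE 0.24, edgeR adjusted p = 0.464) and Pim1 by -0.43 (SE 0.15, edgeR adjusted p = 0.197), and these were the 2 lower ones. The 3 higher ones by CPM were Il6st, Jak2 and Stat5b. Jak2 differed by 0.17 (SE 0.09, edgeR adjusted p = 0.379), Stat5b by 0.14 (SE 0.10, edgeR adjusted p = 0.477) and Prlr by -0.17 (SE 0.08, edgeR adjusted p = 0.303). Il6st, higher in HFD by CPM or by library totals alone, was at -0.05 in the fit with TMM scaling. For Il6st, Stat3, Socs2 and Cish the fitted difference lay between -0.14 and 0.01, with edgeR adjusted p of 0.534 to 0.969. The largest cluster of the class was cluster 2 in HFD, with 1178 and 1264 cells, against 74 and 97 in CTRL, where cluster 0 was the largest. Fitted in each of the 3 clusters alone, none of the 9 tested genes was called by edgeR, where 1.93% of all genes were in cluster 0, 0.0322% in cluster 2 and 0.306% in cluster 6. At an unadjusted p under 0.05 the 9 genes gave 2, 1 and 0 in these clusters. The share of all genes at that threshold is not given for single clusters, so these counts have no background. Over the whole class it was 18.2%. The immediate-early sum of the class was 5099 and 6047 CPM in HFD, against 8484 and 12262 CPM in CTRL.

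In macrophage-like cells 4 of 5 tested genes were lower in HFD without overlap, where 20.6% of all genes were, and the median log2 difference was -0.43 over the 5 genes, against -0.007 over all genes of the class. Il6st had 15.3 and 21.9 CPM in HFD, against 29.8 and 33.9 CPM in CTRL. Stat3 had 73.6 and 90.7 CPM in HFD, against 91.6 and 137 CPM in CTRL. The CTRL libraries were the higher for both genes, and edgeR's adjusted p for the 5 genes was 0.804 to 0.978. Markers of other cells moved with diet here. The 5 red blood cell markers summed to 7516 and 342 CPM in HFD, against 104 and 43.8 CPM in CTRL, with Alas2 at 0 in at least 1 library. The 6 granulocyte markers summed to 1964 and 52.1 CPM in HFD, against 30.9 and 31.1 CPM in CTRL, and only 1 of them had a UMI in every library. The 6 B cell markers summed to 173 and 156 CPM in HFD, against 128 and 121 CPM in CTRL, and 2 had a UMI in every library. The corticotrope markers were lower, at 340.2 and 808 CPM in HFD, against 5957 and 1384 CPM in CTRL. Their part in the result was not tested. In melanotrope-like cells 3 of 9 genes, Prlr, Stat5b and Cish, were lower in HFD without overlap, where 24.9% of all genes were. In the remaining classes 1 to 3 of the 7 to 9 tested genes did not overlap in either direction, where 40.2% of all genes did in lactotrope-like, 36.4% in stem-like, 27.8% in endothelial-like, 36.1% in thyrotrope-like and 33.1% in mesenchymal-like cells.

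No gene was called in the class where it was highest. Lepr in endothelial-like cells differed by -0.03 (SE 0.21), Ghr in mesenchymal-like cells by 0.22 (SE 0.26) and Il6st there by 0.08 (SE 0.18). Stat5b in endothelial-like cells differed by 0.39 (SE 0.20). In stem-like cells the differences were -0.18 for Jak2 (SE 0.17), -0.46 for Stat3 (SE 0.30), 0.10 for Socs2 (SE 0.16) and -0.19 for Cish (SE 0.18). Pim1 in macrophage-like cells differed by -0.45 (SE 0.23). The edgeR adjusted p of these 9 pairs lay between 0.840 and 0.9996. These values do not show that the diets were alike, since an SE of 0.16 to 0.30 leaves room for sizeable differences.

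Over the whole gland, where fewer cells of a type and less RNA per cell cannot be told apart, 0 of 10 genes were called by edgeR, against 0.0108% of all genes. At an unadjusted p under 0.05 edgeR gave 0 of the 10, against 9.5% of all genes. DESeq2 called 0 of them, against 0.951% of all genes. Stat3 had 58.4 and 59.7 CPM in HFD, against 52.0 and 62.5 CPM in CTRL. The log2 differences of the 10 genes ran between -0.13 and 0.18, and 4 genes were higher in HFD without overlap, where 27.2% of all genes were. Whether a diet difference varied between classes was tested with the library as a block, and edgeR called 0 of 10 genes, against 0.185% of all genes. Stat3 came nearest (edgeR adjusted p = 0.358) and was the only 1 of the 10 at an unadjusted p under 0.05. Of all genes 10.3% were under that threshold in this test, so 1 of 10 is near the background.

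The other genes of the route give the setting. Of 66 listed ligands, receptors, kinases, STATs, inhibitors, adaptors and targets, 64 passed the filter in at least 1 class. Lep, the leptin gene itself, had no UMI in any class sum. Of their 485 gene and class pairs, edgeR called 8 (1.65%), against 0.485% of all pairs. In HFD 2 of the 8 were higher, where 0.232% of all pairs were called higher, and 6 were lower, where 0.252% were. By role, these were 1 of 40 pairs of ligands, 1 of 108 of receptors, 0 of 22 of kinases, 1 of 40 of STATs, 2 of 141 of inhibitors, 0 of 34 of adaptors and 3 of 100 of targets. At an unadjusted p under 0.05 edgeR gave 14.4% of the 485 pairs, against 10.0% of all pairs. These were 10 of 40 for ligands, 13 of 108 for receptors, 1 of 22 for kinases, 9 of 40 for STATs, 11 of 141 for inhibitors, 5 of 34 for adaptors and 21 of 100 for targets.

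Of the inhibitors, Socs3, which limits leptin receptor and gp130 signalling, fell in gonadotrope-like cells to 13.7 and 8.49 CPM in HFD, against 31.9 and 47.3 CPM in CTRL. The log2 difference was -1.77 (SE 0.25, edgeR adjusted p = 0.0172). It also fell in thyrotrope-like cells, to 41.1 and 29.8 CPM in HFD, against 79.0 and 62.2 CPM in CTRL, at -1.03 on the log2 scale (SE 0.17, edgeR adjusted p = 0.00594). Socs3 is itself among the 25 immediate-early genes summed above. The thyrotrope-like call was lost without HFD 2 or without CTRL 1, with DESeq2, with thinned cells and with clustering done without the pathway genes. The gonadotrope-like call was lost with thinned cells, where edgeR called 0.0375% of all genes of that class.

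Of the targets, 2 fell in lactotrope-like cells. Myc, a growth regulator, had 1.38 and 1.45 CPM in HFD, against 4.19 and 4.72 CPM in CTRL, which is -1.70 on the log2 scale (SE 0.29, edgeR adjusted p = 0.00613). Pim3, a kinase related to Pim1, had 48.5 and 43.8 CPM in HFD, against 61.0 and 67.6 CPM in CTRL, a difference of -0.53 (SE 0.10, edgeR adjusted p = 0.0141). Both calls were lost without CTRL 2 and with thinned cells, and that of Pim3 also with library totals alone. The immediate-early sum of these cells was 6529 and 5886 CPM in HFD, against 7174 and 7598 CPM in CTRL. In the same cells Stat4, a STAT best known from T cells, rose to 4.305 and 2.36 CPM in HFD, against 0.719 and 0.656 CPM in CTRL, by 2.21 (SE 0.39, edgeR adjusted p = 0.00725), a call lost without HFD 1, CTRL 1 or CTRL 2.

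In gonadotrope-like cells Mcl1, a survival factor, had 53.7 and 47.3 CPM in HFD, against 79.6 and 89.4 CPM in CTRL, which is -0.61 on the log2 scale (SE 0.11, edgeR adjusted p = 0.0349). The interferon receptor gene Ifnar2 rose there, to 92.4 and 92.2 CPM in HFD, against 78.7 and 71.6 CPM in CTRL, by 0.43 (SE 0.09, edgeR adjusted p = 0.0489), and this call was lost under 9 of 14 other settings. The Mcl1 call was lost without HFD 2, without CTRL 2 and with thinned cells. Prl, the prolactin ligand, fell in somatotrope-like cells to 708 and 776 CPM in HFD, against 1400.3 and 1270.4 CPM in CTRL, at -1.002 on the log2 scale (SE 0.12, edgeR adjusted p = 0.0461), a call lost without CTRL 1, with the shared barcodes kept, with doublets kept, with stricter cells, with clustering without the pathway genes and with the replicate block. Prl is the leading product of lactotropes, and over the whole gland it had 31028 and 33560 CPM in HFD, against 50472 and 53544 CPM in CTRL. The part of free Prl RNA in the level of somatotrope-like cells was not tested.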

How the data were processed

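The authors deposited raw UMI counts for each gene in each barcode. Per the submitters' processing notes, Cell Ranger 6.1.2, Seurat 4.3 and mm10 were used in roles that are not stated there. Which annotation was counted, and with strand or not, is not given in these sources. The 10 genes, the 66 other pathway genes, the markers and the 25 immediate-early genes were chosen with earlier results of these data known.

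Barcodes shared by libraries were kept in the library with more UMIs. Cells had a minimum of 500 genes and a mitochondrial share of UMIs up to 20%, and 1314 putative doublets were removed at an assumed 0.8% per 1000 cells. Clustering used 2000 variable genes, 30 components, 20 neighbours and Leiden resolution 0.8 (scanpy 1.11.5, leidenalg 0.10.2). Class names were rebuilt here and may differ from the study's. UMI counts were summed per library and class (10 classes with at least 30 cells in every library) and tested with edgeR 4.0.16 (R 4.3.3): quasi-likelihood F-test, TMM, filterByExpr, Benjamini-Hochberg adjustment over all genes of a fit, called under 0.05. SE was taken from the F statistic. The script was tested on simulated data with known changes. The diet by class interaction had the library as a block.

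A log2 difference is given for each of the 10 genes in its class of highest mean CPM, in somatotrope-like cells and where its adjusted p was smallest, and for other pathway genes where called. Jak2 in corticotrope-like cells was named after its values were seen. Alternatives were RLE factors, library totals, DESeq2 1.42.0, no filter, each library left out, a replicate block, stricter cells, doublets kept, cells thinned to 2000 UMIs, clustering without the pathway genes and, added after seeing the data, shared barcodes kept, single somatotrope-like clusters and crossed replicate numbers. Limits that a count of 0 allows are 3 counts of the cells and cover counting error only. Coordinates are GENCODE vM21 on mm10. Some items are not reported here.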

Additional observations from a re-analysis of the deposited data

Results flagged for a closer look

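Barcodes shared between libraries lie outside the comparisons and exceeded the 14 to 22 that the other 4 pairs of libraries had in common. HFD 1 and HFD 2 shared 3116 barcodes, at 5.10% to 6.19% of the UMIs of HFD 2 in HFD 1 between the 5th and 95th percentile of those fainter in HFD 1. HFD 1 and CTRL 2 shared 1423, of which 1018 were fainter in HFD 1, at a median of 2.87%, and 405 were fainter in CTRL 2, at a median of 2.52%. Among the copies of HFD 1 that passed the filters, the most were gonadotrope-like (452), stem-like (339) and melanotrope-like (258). The cause was not tested. With these copies kept, edgeR called 0 of the gene and class pairs of the 10 genes, as it did without them.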

How the results depend on the processing

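The count of 0 called pairs among the 10 genes, where 0.485% of all pairs were called, became 4 with library totals alone (Socs2, Stat3, Prlr and Pim1 in gonadotrope-like cells), 1 with DESeq2 and 4 without a low-count filter (Stat3 and Jak2 in corticotrope-like, Prlr and Pim1 in gonadotrope-like cells). Calls over all pairs rose as well, to 0.867% with library totals alone, 0.729% with DESeq2 and 1.55% without the filter, and in gonadotrope-like cells to 5.39% with library totals alone and 5.8% without the filter, against 1.92%. Without each library in turn it was 0 to 3, with 3 both without CTRL 1 (Cish, Socs2 and Prlr in gonadotrope-like cells) and without CTRL 2 (Stat3 and Jak2 in corticotrope-like, Pim1 in gonadotrope-like cells). The 8 called pairs of other pathway genes became 13 with DESeq2, 34 without the filter and 17 to 23 without 1 library, where 0.584% to 1.29% of all pairs were called and, without CTRL 1, 8.29% of gonadotrope-like genes. Without the filter, the test of a diet difference that varies between classes called 3 of the 10 genes (Stat3, Pim1 and Jak2), which were not called with it. The share of all genes that this test called without the filter is not given, so the 3 have no background. No setting called one of the 10 genes over the whole gland. The replicate numbers do not pair the libraries by the labels. With the replicate block, 3 pairs of the 10 genes were called (Stat3 in corticotrope-like, Prlr and Pim1 in gonadotrope-like cells), 17 of the pathway genes and 0 over the whole gland, where the block called 0.917% of all pairs, 4.7% of gonadotrope-like and 0.775% of corticotrope-like genes. Deviations of libraries with the same number correlated at -0.18 in somatotrope-like cells, where 15 genes were called without a block, 23 with it and 1178, of them 1 of the 10, with the numbers crossed. In the other classes r ran between -0.092 and 0.34, highest in endothelial-like cells, where 0 genes were called without the block and 77 with it. Crossed numbers called 2 of the 9 tested genes in gonadotrope-like cells, where they called 566 of all 12672 genes, against 243 without a block. In corticotrope-like cells they called 1 of 9, and 224 of all 12639 genes, against 26 without a block.

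Of the log2 differences named, these changed sign. Without 1 library in turn, Lepr in endothelial-like cells ran between -0.14 and 0.086 (without HFD 2, and 0.064 without CTRL 1). In somatotrope-like cells Stat3 ran between -0.050 and 0.0094 (without CTRL 2), Socs2 between -0.30 and 0.00073 (without HFD 2) and Cish between -0.14 (without HFD 1) and 0.16. In stem-like cells, all without CTRL 2 at the upper end, Jak2 ran between -0.40 and 0.090, Stat3 between -0.82 and 0.017, and Cish between -0.38 and 0.032, while Socs2 ran between -0.078 (without CTRL 1) and 0.31. With library totals alone Il6st, Stat3 and Socs2 in somatotrope-like cells were 0.099, 0.12 and 0.015. With thinned cells Lepr was 0.068 and Jak2 in stem-like cells 0.11, and in somatotrope-like cells Il6st was 0.12, Stat5b -0.11 and Cish -0.066. With doublets kept Lepr was 0.032. In somatotrope-like cluster 2 alone Cish was -0.060 and Stat5b -0.080, and in cluster 6 alone Ghr was 0.36 and Pim1 0.030. The cause was not tested. Of the other alternative values for single genes and class orders, 441 kept their direction and side of the threshold. Of the rest of these, 32 lost a call, 15 gained a call and 3 moved. Of the alternative values for counts of calls, 39 stayed the same and 14 moved. The class of highest level did not change with stricter cells or without the pathway genes in clustering. Few UMIs limit Lepr outside endothelial-like cells.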

Other observations

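Other genes of the route had their highest levels in these classes. Il6ra, which passes interleukin-6 to gp130, was highest in corticotrope-like cells at a mean of 92.9 CPM over the 4 libraries. Lifr and Jak1 were highest in endothelial-like cells at 110.3 and 288 CPM, and Cntfr and Il11ra1 in mesenchymal-like cells at 222 and 399 CPM. The ligand Osm was highest in macrophage-like cells at 84.5 CPM. Socs3 was highest in endothelial-like cells, at a mean of 1288 CPM. Stat5a, the near copy of Stat5b, was highest in somatotrope-like cells at 11.3 CPM. These means carry no test, since the classes were made from the same cells.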
